A study of Mus musculus with 6 samples.

Results

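The plasma factors of the complement and clotting systems were followed as 44 genes in mouse liver after long exposure to a cyanobacterial toxin. They include components and regulators of the classical, lectin, alternative and terminal complement pathways. The rest are contact and clotting factors, fibrinogen, and proteins that check clotting or act in dissolving the clot. They were taken by gene name or synonym from the probes of the array, 44 of 27343 genes with a probe, and each gene was read from its probe with the highest mean signal. The MC-LR group was 3 livers of male BALB/c mice, 6 weeks old at the start, that drank water with 100 µg/L microcystin-LR (MC-LR, a toxin that inhibits protein phosphatases 1 and 2A) for 12 months. The control group was 3 livers of male BALB/c mice of the same age that drank sterile water over the same 12 months. Each liver came from its own mouse and was read on an Agilent single-colour array of its own, so n = 3 per group throughout, and the series' title asks which liver genes differ between the groups. The time of day at which livers were taken is not given in the sources used here.

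Complement is a cascade of serum proteases and opsonins. C1q, the collectins and C3 turnover start its classical, lectin and alternative pathways, these meet at C3, and C6 to C9 take part in the pore that is its end product. Clotting is a second protease cascade that ends with thrombin cutting fibrinogen to fibrin, and plasmin later removes the fibrin. Hepatocytes secrete most of these proteins, and several, fibrinogen and C3 among them, are acute phase proteins whose synthesis responds to interleukin 6; C1q and properdin come mainly from macrophages and other myeloid cells, and factor D (adipsin) mainly from adipocytes.

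The promoters of Fga, Fgb and Fgg, the genes of the 3 chains of fibrinogen, and of C9, the pore-forming subunit, are shown because Fga, C9 and Fgb gave the 3 lowest differences described below and Fgg completes the protein. Each is RefSeq sequence of GRCm38.p6, from 250 bases before to 50 bases after the annotated start, 5′ to 3′ on the gene's strand, at chr3:83025903-83026202 (plus strand) for Fga, chr3:83049814-83050113 (minus strand) for Fgb, chr3:83007474-83007773 (plus strand) for Fgg and chr15:6445096-6445395 (plus strand) for C9. Capitals mark matches on either strand to a C/EBP site (TTGCNNAA), the core of an HNF1 site (GTTAAT), the type of interleukin 6 response element found in acute phase genes (CTGGGAA) and a PU.1 site (GAGGAA).
Fga: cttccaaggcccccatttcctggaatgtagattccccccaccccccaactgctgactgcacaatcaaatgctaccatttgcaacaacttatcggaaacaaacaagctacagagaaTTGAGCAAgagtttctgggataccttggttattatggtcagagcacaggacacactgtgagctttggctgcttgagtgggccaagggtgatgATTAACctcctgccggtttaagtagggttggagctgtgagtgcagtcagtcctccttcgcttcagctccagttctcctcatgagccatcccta
Fgb: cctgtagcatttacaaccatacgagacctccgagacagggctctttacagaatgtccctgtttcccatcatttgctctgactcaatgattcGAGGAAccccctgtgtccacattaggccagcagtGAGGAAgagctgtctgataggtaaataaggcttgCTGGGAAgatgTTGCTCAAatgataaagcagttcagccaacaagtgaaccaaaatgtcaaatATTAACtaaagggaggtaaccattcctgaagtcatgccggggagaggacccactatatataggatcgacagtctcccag
Fgg: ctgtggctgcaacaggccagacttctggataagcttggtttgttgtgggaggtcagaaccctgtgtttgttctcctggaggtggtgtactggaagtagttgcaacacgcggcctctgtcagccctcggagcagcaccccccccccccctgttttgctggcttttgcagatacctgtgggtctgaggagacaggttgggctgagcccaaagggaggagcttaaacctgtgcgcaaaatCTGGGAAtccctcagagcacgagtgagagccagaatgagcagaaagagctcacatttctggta
C9: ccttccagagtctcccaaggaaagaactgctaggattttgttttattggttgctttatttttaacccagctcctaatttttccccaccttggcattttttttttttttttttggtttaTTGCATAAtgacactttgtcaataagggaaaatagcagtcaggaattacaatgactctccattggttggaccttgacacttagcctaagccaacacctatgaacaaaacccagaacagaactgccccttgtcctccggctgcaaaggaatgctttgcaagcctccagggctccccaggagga
Counting from the first printed base, Fgb held PU.1 matches at 92 to 97 and 126 to 131, an interleukin 6 element at 160 to 166, a C/EBP match at 171 to 178 and an HNF1 match at 222 to 227. Fga held a C/EBP match at 116 to 123 and an HNF1 match at 208 to 213, Fgg an interleukin 6 element at 238 to 244, and C9 a C/EBP match at 119 to 126. No match overlapped another. Of the 44 genes, 34 had a promoter in the RefSeq table, 36 promoters in all. The C/EBP letters were in 11 of these 36 and in 10.8% of all 32851 promoters of the same length, the HNF1 letters in 9 of 36 and 7.1%, the interleukin 6 element in 7 of 36 and 11.1%, and the PU.1 letters in 6 of 36 and 28.3%. These are matches of letters only.

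All 44 genes were well above background on all 6 arrays, and none was saturated. No gene of the 44 passed limma's test after Benjamini-Hochberg adjustment over the 18895 genes tested, where the smallest adjusted p among them was 0.259 (Masp1); over all genes 0.0159% passed (3 genes, all higher in MC-LR livers). At an unadjusted p under 0.05 stood 3 of the 44, Masp1 higher and C9 and Fgb lower, which is a smaller share than the 12.9% of all genes at that level. The values of the MC-LR and control livers did not overlap for 3 genes higher in MC-LR livers (Masp1, C6 and Proc), against 11.3% of all genes, and for 7 lower in MC-LR livers (Cfb, C9, Fgb, Fgg, Pros1, Plg and Cpb2), against 9.23%. Groups count as apart here by their unrounded values with no tolerance, and for Fgg the nearest values are equal at 3 decimals. An exact permutation test of 3 against 3 arrays cannot give a two-sided p below 0.10.

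Differences are given as MC-LR minus control on the log2 scale of the normalized signal. They lay between -0.64 (Fga) and 0.39 (C8b), with a median of -0.08, beside a median of -0.01 over all genes. Above 0 lay 17 genes, against 48.6% of all genes, and below 0 lay 27, against 51.4%. The median size of a difference was 0.15 for the 44 genes and 0.17 for all genes. The split depended on the scaling: it was 21 above and 23 below with 75th percentile scaling, 23 above and 21 below with median scaling, 18 above and 26 below after normexp background correction, and 17 above and 27 below in the authors' deposited log2 values. Of the 44 genes, 36 kept the side of 0 under all 4 of these, and 8, none with a difference larger than 0.102 in size, turned: C1s1, C3, F12, F8, Kng1, Plg, Serpind1 and Vtn.

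**Figure D1:**
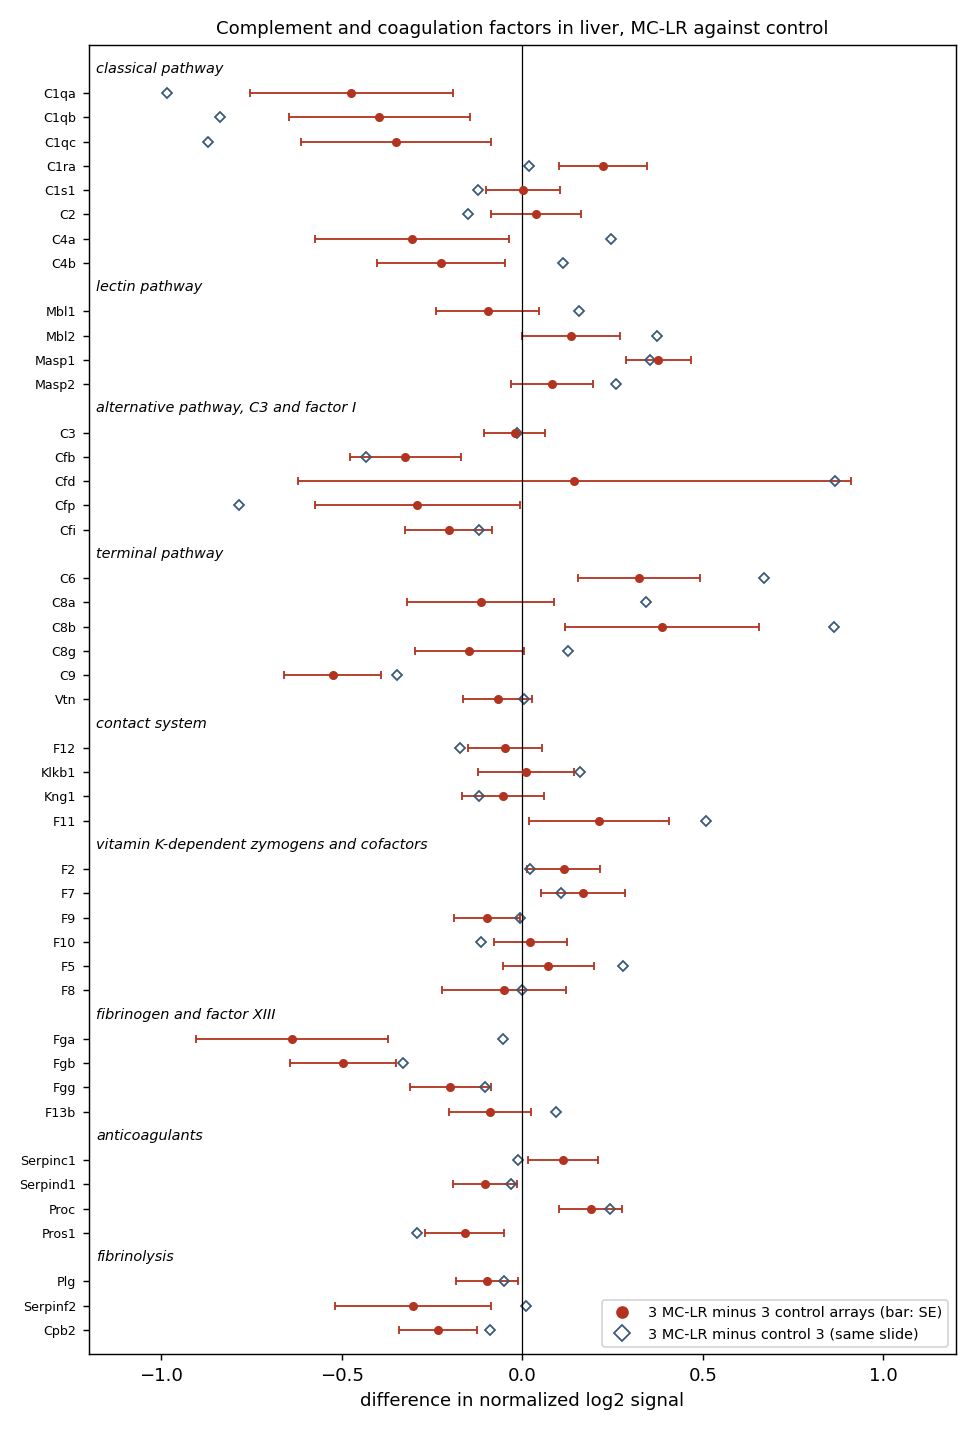
Difference between MC-LR and control livers (x axis, log2 scale, MC-LR minus control) for each of the 44 genes, ordered by role, as filled points with bars for the SE of the limma fit (n = 3 arrays per group); open diamonds give the mean of the MC-LR livers minus control 3 alone. The filled points of all 4 genes of fibrinogen and factor XIII lie left of 0, those of Masp1 and C8b lie farthest right, and the value of C3 near 0 turns sign with the scaling.

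The arrays were not alike in what they were run with. Controls 1 and 2 shared slide 1, while control 3 and the 3 MC-LR arrays shared slide 2, which coincides with the scan, and arrays correlated at r of 0.982 to 0.994 over all probes. Of the 44 genes, 28 were lower and 16 higher in control 3 than in the mean of controls 1 and 2. With slide as a block, the difference of each gene is the mean of the MC-LR livers minus control 3 alone, and it turned direction for 12 of the 44 genes, against 26.9% of all genes. Then 9 of the 44 stood at an unadjusted p under 0.05, against 16.1% of all genes: C6, C8a, C8b, Masp1 and Mbl2 were higher (7.98% of all genes were) and C1qa, C1qb, C1qc and Cfp lower (8.12%). None passed adjustment, against 0.0794% of all genes. Turned above 0 were C4a, C4b, Mbl1, C8a, C8g, Vtn, F13b and Serpinf2, and turned below 0 were C1s1, C2, F10 and Serpinc1, with sizes of 0.342 or less with the block. Slide 1 held no MC-LR array.

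Fibrinogen, the soluble protein that thrombin turns into the fibrin of a clot, had lower mean signals for all 3 of its chains in MC-LR livers, none past the adjusted threshold. Fgb, the gene of the beta chain (probe at chr3:82846334-82846393, mm9), measured 17.65, 17.75 and 17.34 in MC-LR livers, against 18.20, 18.11 and 17.91 in control livers. The groups did not overlap, and the difference was -0.50 ± 0.15 (SE), a 1.41-fold lower signal, with an unadjusted p of 0.0151 and an adjusted p of 0.301 in limma's test. With 75th percentile and median scaling it was -0.32 and -0.28 (unadjusted p of 0.0836 and 0.117). Fgg, the gamma chain that carries the main site for platelets and for cross-linking, measured 18.03, 17.98 and 17.77 in MC-LR livers, against 18.17, 18.17 and 18.03 in control livers. The highest MC-LR value and the lowest control value all but tied, and the difference was -0.20 ± 0.11 (SE; adjusted p = 0.498 in limma's test), -0.08 and -0.04 with the same scalings, and -0.12 without MC-LR 3.

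Fga, the alpha chain from which thrombin removes the first peptide (probe at chr3:82835678-82835737, mm9), measured 15.66, 15.75 and 15.51 in MC-LR livers, against 16.70, 16.43 and 15.69 in control livers. Control 3 lay among the MC-LR livers and controls 1 and 2 well above them, and the difference was -0.64 ± 0.27 (SE), 1.56-fold lower, with an adjusted p of 0.393 in limma's test. Control 3 decided this value: the difference was -0.93 without it (adjusted p = 0.0694 in limma's test), while the slide block gave -0.05 (adjusted p = 0.908). Without control 1 it was -0.42. With the block, the differences of Fgb and Fgg were -0.33 (adjusted p = 0.452) and -0.10 (adjusted p = 0.771), so that the direction was the same for all 3 chains and the size was smaller. F13b, which carries the subunit of factor XIII that stabilises the cross-linking enzyme in plasma, differed by -0.09 ± 0.11 (SE; adjusted p = 0.771), and by 0.09 with the block. All 4 genes were also lower in control 3 than in the mean of controls 1 and 2. The median of the 4 was -0.35, between -0.16 and -0.35 under the other scalings and the deposited values, and -0.08 with slide as a block.

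In the terminal pathway, C6 and C8b lay above 0 and the other 4 genes below. C9, whose copies line the membrane pore (probe at chr15:6433127-6433186, mm9), measured 12.13, 11.93 and 12.15 in MC-LR livers, against 12.79, 12.57 and 12.42 in control livers. The groups did not overlap, and the difference was -0.52 ± 0.13 (SE), 1.44-fold lower, with an unadjusted p of 0.00773 and an adjusted p of 0.27 in limma's test; with slide as a block it was -0.35 (adjusted p = 0.365). C6, which joins the complex before C9 and was singled out after its values were seen, measured 12.84, 12.78 and 12.95 in MC-LR livers, against 12.71, 12.70 and 12.19 in control livers. All MC-LR livers lay above all control livers, with a difference of 0.32 ± 0.17 (SE; adjusted p = 0.467), and 0.67 ± 0.12 once slide was a block (unadjusted p = 0.00285, adjusted p = 0.152 in limma's test).

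C8b, a chain of C8, gave the highest difference of the 44 genes, 0.39 ± 0.27 (SE; adjusted p = 0.578 in limma's test), and it too was singled out after its values were seen. It measured 13.32, 12.68 and 13.22 in MC-LR livers, against 13.02, 12.83 and 12.21 in control livers, so the groups overlapped, with control 3 below the other 5 livers. The other chains lay below 0, C8a at -0.12 ± 0.20 and C8g at -0.15 ± 0.15 (SE). The block gave 0.86 for C8b (unadjusted p = 0.0275, adjusted p = 0.262) and 0.13 for C8g (adjusted p = 0.701), and C8a turned to 0.34 (unadjusted p = 0.0263, adjusted p = 0.259 in limma's test), since control 3 measured 14.65 and the other controls 15.35 and 15.33. All 6 genes of the pathway were lower in control 3 than in the mean of controls 1 and 2. Vtn (vitronectin), an inhibitor of the complex, differed by -0.07 ± 0.10 (SE), a value that turned above 0 with 75th percentile or median scaling and was 0.005 with the block.

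**Figure D2:**
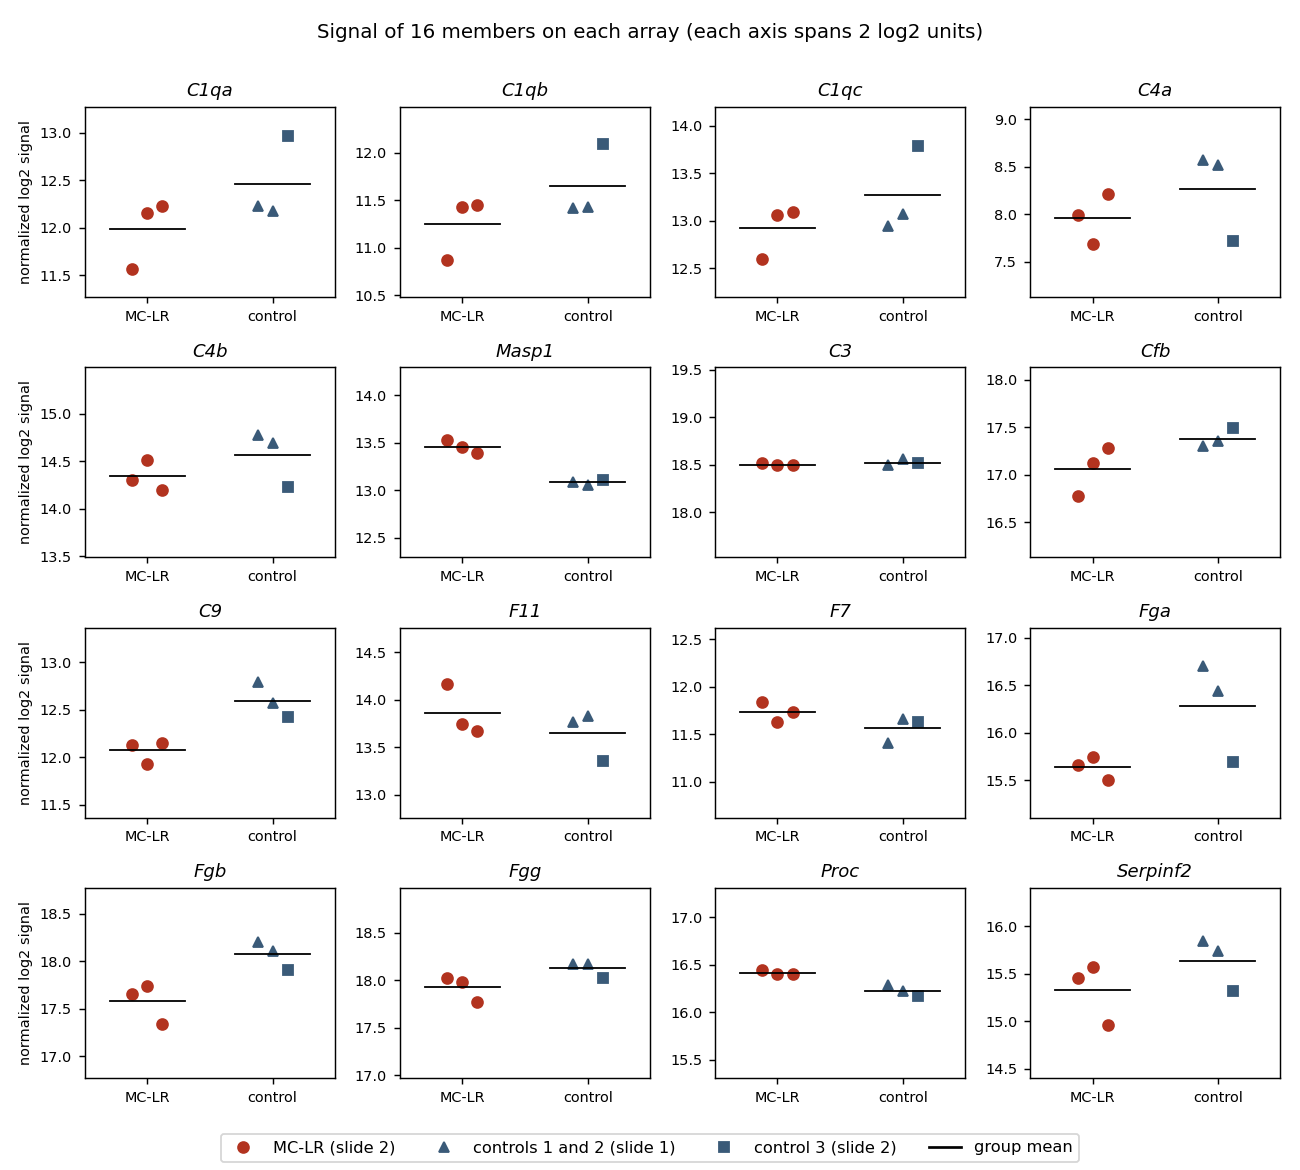
Normalized log2 signal (y axis) on each of the 6 arrays for genes named in the text, MC-LR livers left of control livers, with points for arrays and lines for group means. For C9 and Fgb all MC-LR livers lie below all control livers, for Masp1 all lie above, and for Fga control 3 (15.69) lies within the MC-LR range of 15.51 to 15.75.

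The lectin pathway, which reads sugars on microbial surfaces, held the gene with the smallest p of the 44. Masp1 encodes a serine protease that travels with mannose-binding lectin, and its probe near the 3′ end (chr16:23449609-23449668, mm9) measured 13.54, 13.46 and 13.39 in MC-LR livers, against 13.09, 13.05 and 13.11 in control livers. The groups were apart and the controls differed by little among themselves, with means of 13.46 ± 0.07 in MC-LR livers and 13.09 ± 0.03 in control livers (SD, n = 3 each). The difference was 0.38 ± 0.09 (SE), 1.3-fold higher, with an unadjusted p of 0.00567 and an adjusted p of 0.259 in limma's test. With slide as a block it was 0.36 (unadjusted p = 0.031, adjusted p = 0.271), since control 3 measured close to the other controls.

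The 4 probes of Masp1 gave different values. From the 3′ end, their differences were 0.38, 0.25, -0.14 and 0.06, with SEs of 0.09, 0.11, 0.14 and 0.19 when each probe was tested as its own feature. The first of these is named in the array annotation for one deposited cDNA, the second for the RefSeq transcript, and the third, whose difference was below 0, for other cDNAs of the gene. Taking the first minus the third probe within each array gave 0.69, 0.35 and 0.71 in MC-LR livers, against 0.14, 0.05 and 0.01 in control livers. All MC-LR livers lay above all control livers (exact permutation test, two-sided, p = 0.1, the smallest that 20 splits can give), a pair of probes chosen after their values were seen. The gene is known to give several proteins by alternative splicing at its 3′ end, and which transcript each probe reads was not tested.

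The other lectin pathway genes gave no difference past the threshold. Mbl1 and Mbl2, the mannose-binding lectins, differed by -0.10 ± 0.14 and 0.14 ± 0.14, and Masp2, the gene of the protease that cuts C4 and C2, by 0.08 ± 0.11 (SE; adjusted p of 0.811, 0.704 and 0.791 in limma's test). The Masp2 probe used is annotated to 1 RefSeq transcript and a probe nearer the 3′ end to another. That other probe differed by -0.14 ± 0.14 (SE), and which product each probe reads was not tested. Under the slide block Mbl2 gave 0.37 (unadjusted p = 0.034, adjusted p = 0.276), Mbl1 0.16 and Masp2 0.26 (adjusted p of 0.612 and 0.354).

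**Figure D3:**
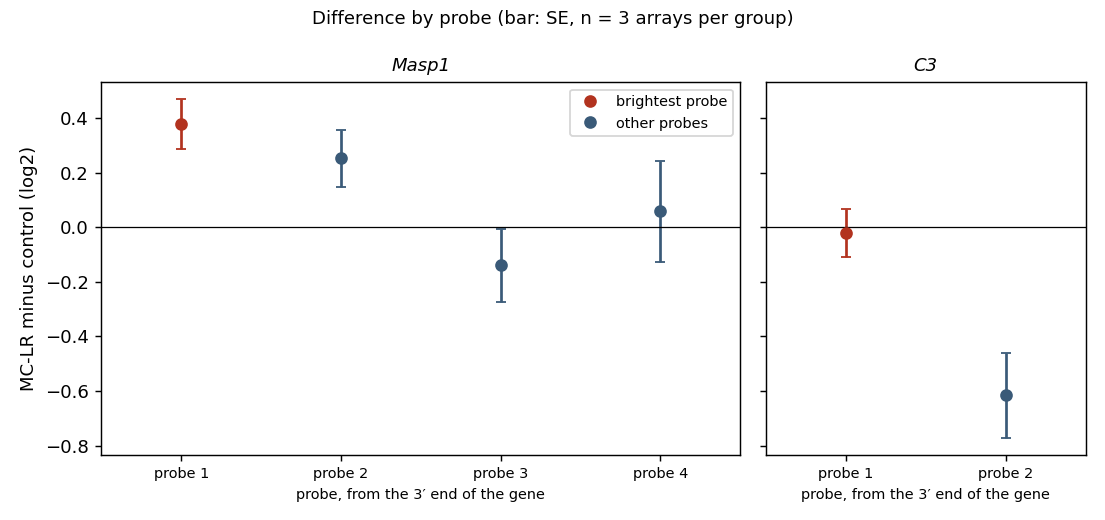
Difference between MC-LR and control livers (y axis, log2 scale) for each probe of Masp1 and of C3, ordered from the 3′ end of the gene, with bars for the SE (n = 3 arrays per group). The first Masp1 probe lies at 0.38 and the third at -0.14, and the C3 probes lie at -0.02 and -0.62.

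C3, the protein on which all complement pathways meet, gave different values by probe. Its probe near the 3′ end (chr17:57343416-57343475, mm9) measured 18.52, 18.50 and 18.50 in MC-LR livers, against 18.50, 18.56 and 18.52 in control livers. The difference was -0.02 ± 0.08 (SE; adjusted p = 0.938 in limma's test), and it was 0.12 with 75th percentile scaling, 0.15 with median scaling and 0.01 after normexp correction. This probe ranked between 3 and 5 among all probes on each array, and the highest value of any probe was 18.94, so the range left above it was small. Quantile normalization gives a probe of a given rank nearly the same value on every array. This limits how far a probe that keeps its rank can differ between arrays, a limit that the 75th percentile and median scalings do not share. The part of this limit in the small difference was not tested. The second probe, further upstream, measured 12.65, 12.59 and 13.07 in MC-LR livers, against 13.34, 13.32 and 13.49 in control livers. Its groups were apart, with a difference of -0.62 ± 0.16 (SE; unadjusted p = 0.00688, adjusted p = 0.254 in limma's test, each probe as its own feature). Taking the second minus the first probe within each array gave -5.87, -5.91 and -5.42 in MC-LR livers, against -5.15, -5.23 and -5.03 in control livers. The probes thus lay further apart in every MC-LR liver than in every control liver (exact permutation test, two-sided, p = 0.1, the smallest that 20 splits can give). This pair, too, was taken after its values were seen. Since the first probe hardly varied, this contrast mostly repeats the difference of the second and adds no support to it. The part of signal compression near the top of the range was not tested.

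In the alternative pathway, Cfb, the protease subunit of its convertase, measured 16.77, 17.12 and 17.28 in MC-LR livers, against 17.30, 17.35 and 17.49 in control livers. The groups were just apart, and the difference was -0.32 ± 0.15 (SE; adjusted p = 0.441 in limma's test). It was -0.17 and -0.14 with 75th percentile and median scaling and -0.18 without MC-LR 1. Cfi, the protease that inactivates C3b and C4b, differed by -0.20 ± 0.12 (SE; adjusted p = 0.519). Cfd, the adipsin that cuts factor B, varied most of the 44 genes: 5.78, 8.03 and 7.89 in MC-LR livers, against 6.63, 8.26 and 6.37 in control livers. Low and high livers occurred in both groups, and its difference of 0.15 ± 0.77 (SE; adjusted p = 0.953), 0.87 with slide as a block, was smaller than this spread. Of the 8 adipocyte markers, 6 passed the filter, and their mean log2 level ran from 9.31 to 9.83 in MC-LR livers and from 9.46 to 9.67 in control livers. The defining markers Adipoq and Plin1 did not pass it. Their part in the spread of Cfd was not tested.

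C1q, the recognition protein of the classical pathway, is built from the products of C1qa, C1qb and C1qc, and the 3 genes ran in parallel over the 6 livers. C1qa measured 11.57, 12.16 and 12.23 in MC-LR livers, against 12.23, 12.18 and 12.97 in control livers. C1qb measured 10.87, 11.43 and 11.45 in MC-LR livers, against 11.42, 11.44 and 12.09 in control livers. C1qc measured 12.60, 13.06 and 13.10 in MC-LR livers, against 12.95, 13.07 and 13.79 in control livers. For each chain MC-LR 1 was the lowest liver and control 3 the highest, with the remaining 4 close together. The differences were -0.47 ± 0.28, -0.40 ± 0.25 and -0.35 ± 0.26 (SE), and the adjusted p in limma's test was 0.52, 0.545 and 0.608.

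Control 3 and MC-LR 1 each moved these values by over 1.5 times. With slide as a block, where control 3 is the only comparator, the differences were -0.98, -0.84 and -0.87 (unadjusted p of 0.0174, 0.0235 and 0.013, adjusted p of 0.232, 0.251 and 0.212 in limma's test). Without control 3 they were -0.22, -0.17 and -0.09, and without MC-LR 1 they were -0.27, -0.21 and -0.19. Cfp (properdin), which stabilises the alternative convertase and was singled out after its values were seen, had the same order of livers at its ends: 12.35, 12.87 and 13.11 in MC-LR livers, against 12.82, 12.81 and 13.56 in control livers. Its difference was -0.29 ± 0.28 (SE; adjusted p = 0.698), and the slide block gave -0.78 (unadjusted p = 0.0478, adjusted p = 0.305).

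Markers of Kupffer cells and other macrophages were read beside C1q. Of 12 such markers, 11 had a difference below 0 and 1 above, with a median of -0.23, and none passed the adjusted test or stood at an unadjusted p under 0.05. Their mean log2 level was 10.73, 10.98 and 11.46 in MC-LR livers, against 11.10, 11.12 and 11.70 in control livers, so MC-LR 1 was the lowest and control 3 the highest, as for C1q. Without control 3 or without MC-LR 1 the median was -0.10. With slide as a block it was -0.65, and 3 of the 12 markers lay below 0 at an unadjusted p under 0.05, against 8.12% of all genes. Among the defining markers, Adgre1 measured 11.14, 11.52 and 11.88 in MC-LR livers, against 11.68, 11.81 and 13.12 in control livers, while Clec4f measured 12.50, 13.15 and 13.10 in MC-LR livers, against 13.35, 13.27 and 13.09 in control livers. In pieces of whole liver, fewer cells of a type and less RNA per cell cannot be told apart, and the part of macrophage number in the C1q values was not tested.

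**Figure D4:**
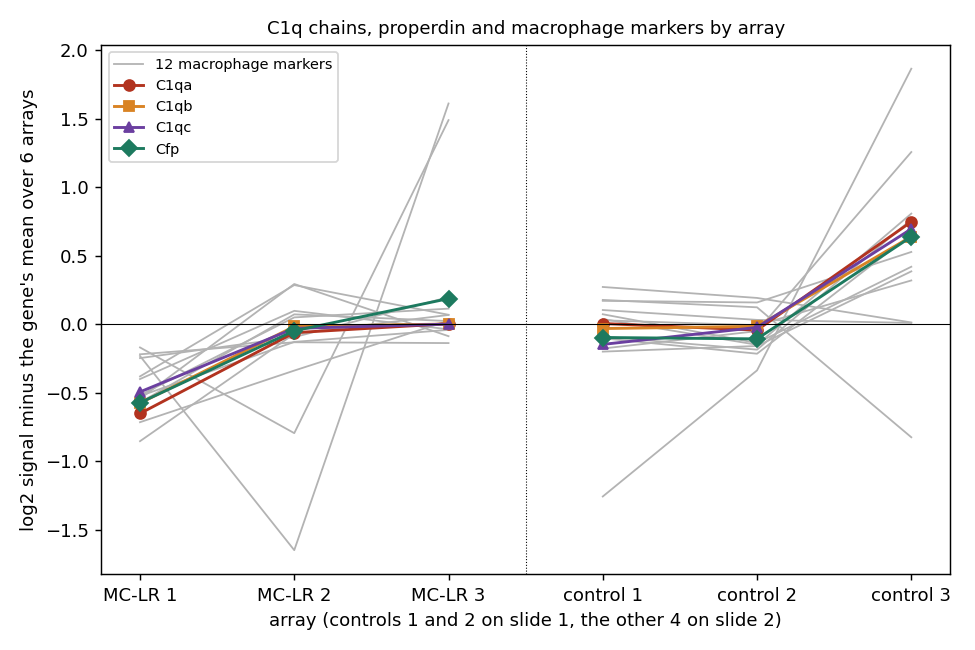
Normalized log2 signal minus the gene's mean over the 6 livers (y axis) for C1qa, C1qb, C1qc and Cfp (coloured) and 12 macrophage markers (grey), MC-LR livers left of control livers. The C1q chains are lowest in MC-LR 1 and highest in control 3, and 9 of the 12 macrophage markers are likewise higher in control 3 than in the mean of controls 1 and 2.

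C4 is encoded in the mouse by a near-identical pair of genes, C4a and C4b, and the probe of each is annotated to the RefSeq transcripts of both, so which gene is measured is uncertain. Both probes are shown because their letters, unlike their annotation, are distinct. They lie on mm9 at chr17:34958899-34958958 and chr17:34866361-34866420, each on the minus strand.
C4a probe: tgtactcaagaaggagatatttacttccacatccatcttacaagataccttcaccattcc
C4b probe: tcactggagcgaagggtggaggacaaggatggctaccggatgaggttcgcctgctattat
The C4a probe measured 7.99, 7.69 and 8.21 in MC-LR livers, against 8.57, 8.51 and 7.71 in control livers. The C4b probe measured 14.30, 14.52 and 14.20 in MC-LR livers, against 14.78, 14.69 and 14.23 in control livers. Control 3 lay within the MC-LR range for both, and controls 1 and 2 above it. The differences were -0.30 ± 0.27 and -0.23 ± 0.18 (SE; adjusted p of 0.665 and 0.626 in limma's test), and both turned above 0 with slide as a block (0.25 and 0.11). Without control 3 they were -0.58 and -0.40. The remaining classical genes, the proteases C1ra and C1s1 and their substrate C2, differed by 0.22 ± 0.12, 0.00 ± 0.10 and 0.04 ± 0.13 (SE; adjusted p of 0.49, 0.994 and 0.92), and by 0.02, -0.12 and -0.15 with slide as a block.

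The contact system, which starts clotting on charged surfaces, had the smallest median size of difference of the 9 role groups. F12, Klkb1 (plasma prekallikrein) and Kng1 (kininogen) lay between -0.05 and 0.01. F11, the zymogen that activates factor IX, measured 14.17, 13.75 and 13.67 in MC-LR livers, against 13.76, 13.83 and 13.35 in control livers. The groups overlapped, and the difference was 0.21 ± 0.19 (SE; adjusted p = 0.671 in limma's test). It was 0.51 with slide as a block (unadjusted p = 0.0698, adjusted p = 0.345), 0.06 without MC-LR 1 and 0.07 without control 3. Of the vitamin K-dependent zymogens F2, F7, F9 and F10 and the cofactors F5 and F8, 4 lay above 0 and 2 below, between -0.10 (F9) and 0.17 (F7), and none had an unadjusted p under 0.05. F7, which starts clotting with tissue factor, measured 11.84, 11.63 and 11.73 in MC-LR livers, against 11.40, 11.67 and 11.62 in control livers, a difference of 0.17 ± 0.12 (SE; adjusted p = 0.576) that was 0.11 with the block and 0.09 without control 1. F10 differed by 0.02 and turned to -0.11 with the block. F8 comes mainly from endothelial cells, and it differed by -0.05 ± 0.17 (SE; adjusted p = 0.925). The 12 markers of liver sinusoidal endothelium were all below 0, with a median of -0.37. At an unadjusted p under 0.05 in limma's test stood 3 of the 12, against 5.37% of all genes below 0, and none passed adjustment. Under the slide block 5 of the 12 turned above 0 and the median was -0.20, and the part of these markers was not tested.

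Among the anticoagulants, Proc, the zymogen of activated protein C, measured 16.44, 16.40 and 16.40 in MC-LR livers, against 16.28, 16.22 and 16.17 in control livers. The groups were apart by more than the range of either, yet the difference was 0.19 ± 0.09 (SE), 1.14-fold higher, with an adjusted p of 0.425 in limma's test; the slide block gave 0.24 (adjusted p = 0.359). Pros1, protein S, the cofactor of activated protein C, lay the other way without overlap: 11.47, 11.61 and 11.67 in MC-LR livers, against 11.68, 11.68 and 11.88 in control livers, with a difference of -0.16 ± 0.11 (SE; adjusted p = 0.574). Its highest MC-LR value and its lowest control value differed by less than 0.01. Serpinc1 (antithrombin) differed by 0.11 ± 0.10 and Serpind1 (heparin cofactor II) by -0.10 ± 0.09 (SE; adjusted p of 0.655 and 0.658), the second turning above 0 with median scaling and the first turning to -0.01 with slide as a block.

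The 3 genes of fibrinolysis all lay below 0. Serpinf2, the inhibitor of plasmin, measured 15.46, 15.57 and 14.96 in MC-LR livers, against 15.84, 15.73 and 15.32 in control livers, with an overlap and a difference of -0.30 ± 0.22 (SE; adjusted p = 0.588 in limma's test) that was 0.01 with slide as a block, -0.46 without control 3 and -0.12 without MC-LR 3. Cpb2, a carboxypeptidase that protects fibrin, differed by -0.23 ± 0.11 and Plg (plasminogen) by -0.10 ± 0.09 (SE; adjusted p of 0.425 and 0.661), both without overlap. With the block they were -0.09 and -0.05, and Plg turned above 0 with median scaling.

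For genes with several probes, the side of 0 was compared between probes. Of the 44 genes, 33 had 1 probe and 11 had more, with 15 further probes, of which 14 passed the filter on dim probes. Of these 14, 11 lay on the side of the gene's main probe and 3 on the other, the third Masp1 probe, a Masp2 probe (-0.14 ± 0.14, against 0.08 for the probe used) and a Plg probe (0.02 ± 0.09, against -0.10). The side says little where the main probe lies near 0. Counted on the same side were C1s1 (0.17, against 0.003) and C3 (-0.62, against -0.02). The share over all genes with several probes was not counted, so no agreement particular to the 44 can be read from this.

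A further list of 52 genes of the same systems, among them receptors, surface regulators and endothelial factors, held 50 with a probe and 44 that passed the filter. None passed after adjustment, 1 stood at an unadjusted p under 0.05 above 0 (against 7.5% of all genes) and 5 below (against 5.37%), and the median was -0.07, with 19 above 0 and 25 below. The split again depended on the scaling, the median being 0.02 with median scaling. Habp2, the factor VII activating protease, measured 7.92, 7.85 and 7.85 in MC-LR livers, against 7.39, 7.37 and 7.41 in control livers, a difference of 0.48 ± 0.09 (SE), 1.40-fold higher (adjusted p = 0.211 in limma's test). Serpina10, the protein Z-dependent inhibitor of factor Xa, measured 10.26, 10.47 and 10.57 in MC-LR livers, against 11.07, 11.01 and 11.10 in control livers, a difference of -0.63 ± 0.11 (SE), 1.54-fold lower (adjusted p = 0.213). Both had control 3 beside the other controls, and the slide block gave 0.46 and -0.67 (adjusted p of 0.188 and 0.186). Colec10, a collectin that starts the lectin pathway, differed by -0.46 ± 0.14, C4bp, the C4 binding protein, by -0.29 ± 0.10, Tfpi, the inhibitor of tissue factor, by -0.31 ± 0.10, and Thbd, the endothelial thrombin receptor, by -0.61 ± 0.21 (SE; adjusted p of 0.297, 0.327, 0.32 and 0.341). Over the 44 further genes tested, the groups were apart for 4 higher in MC-LR livers, against 11.3% of all genes, and for 7 lower, against 9.23%. Colec10, C4bp, Tfpi and Thbd were among the 7, but they were named for an unadjusted p under 0.05 in limma's test. Their lack of overlap is therefore no separate result. Under the slide block none of the 4 stood at an unadjusted p under 0.05: the differences were -0.33, -0.33, -0.20 and -0.39 (unadjusted p of 0.124, 0.0567, 0.16 and 0.232). C4bp was -0.15 and -0.11 with 75th percentile and median scaling, and a second Tfpi probe gave 0.14.

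Other marker lists give the setting of these livers. All 11 hepatocyte markers with a probe passed the filter, of which 7 lay above 0 and 4 below, with a median of 0.10. Of 16 hepatic acute phase genes outside the 44, 14 lay below 0 with a median of -0.38, and 8 of them stood at an unadjusted p under 0.05, against 5.37% of all genes, while none passed after adjustment. Under the slide block 2 of the 16 did so below 0, against 8.12% of all genes, and the median was -0.29. Their mean log2 level was 14.35, 14.93 and 14.68 in MC-LR livers, against 15.23, 14.90 and 15.05 in control livers, and their part in the fibrinogen and C9 values was not tested. All 7 neutrophil markers that passed the filter, of 9 with a probe, lay below 0, with a median of -0.56 that was -0.12 after normexp correction, -1.33 with slide as a block, -0.25 without control 3, -0.34 without MC-LR 1, -0.95 without MC-LR 2 and -0.32 without MC-LR 3. Of 7 platelet markers 6 lay below 0, with a median of -0.64 that was -0.33 after normexp correction and -0.73 with the block. At an unadjusted p under 0.05 in limma's test stood 5 of the 7, all below 0, against 5.37% of all genes, and none passed adjustment. Of 15 circadian clock genes 11 lay above 0 and 4 below, from -3.02 (Arntl) to 5.65 (Ciart). The median was 1.11, and 0.82 with slide as a block. At an unadjusted p under 0.05 in limma's test 8 lay above 0, against 7.5% of all genes, and 2 below, against 5.37%. The slide block gave 4 above 0 at that level, against 7.98% of all genes, and 0 below, against 8.12%. None passed adjustment. Ciart was well above background on 1 control array and Per3 on 2, so both passed the filter through the MC-LR arrays. The mean log2 level, taken over genes of both directions, was 9.12, 9.03 and 9.08 in MC-LR livers, against 7.61, 8.28 and 8.36 in control livers. The part of the time of sampling in any difference above was not tested.

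Weighting the arrays by their fit to the groups gave control 3 a weight of 0.26, against 0.54 to 2.72 for the other 5. With these weights 3 of the 44 genes passed adjustment, Masp1 at 0.41 (adjusted p = 0.0413 in limma's test), C9 at -0.62 (adjusted p = 0.0421) and Fga at -0.90 (adjusted p = 0.0462), against 4.72% of all genes. At an unadjusted p under 0.05 stood 13 of the 44, against 29.9% of all genes. Without control 3 none of the 44 passed, against 0.265% of all genes, and 9 stood at an unadjusted p under 0.05 (Fga, C9, Masp1, C8a, Fgb, C1ra, C4a, Cpb2 and C4b), against 20.8% of all genes. Control 3 is the only control on the slide of the MC-LR arrays. Both settings thus set mostly or only slide 1 controls against slide 2 MC-LR livers, and group cannot be told apart from slide there. With slide as a block, the differences of Masp1, C9 and Fga were 0.355, -0.347 and -0.053.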

How the data were processed

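Liver RNA was amplified and labelled with Cy3, per the labels' protocols, and scanned on 1 array per mouse. Per the submitters' processing notes, the software was Agilent Feature Extraction 10.7. Per the file headers, its processed intensity is corrected for background and for trends over the array, and the raw mean and background intensities stand beside it. The authors also deposited log2 values, made by quantile normalization in GeneSpring according to the series' design text. These columns correlated at r of 0.9982 or more with their own array's log2 processed signal, so they were read as log2 signal, not centred by gene, and used as an alternative.

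The processed signal was floored at 1 and put on the log2 scale, outlier spots were dropped, repeated spots were averaged, and quantile normalization followed. Of 41174 probes, 30 lacked a value. Probes were named by RefSeq accession in GRCm38.p6 (27668), by symbol (6060) or by the file (7446). The probe per gene was the brightest by the mean of the deposited log2 values. Genes well above background on all 3 arrays of a group were tested with limma 3.58.1 in R 4.3.3 (4 residual and 2.05 prior degrees of freedom, two-sided), with Benjamini-Hochberg adjustment and a threshold of 0.05. The steps were tested on simulated data. The number of arrays limits the precision, and 64.9% to 73.7% of spots were well above background.

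The 44 genes and all lists were chosen with earlier results of these data known. Per-array values were to be given for genes at an unadjusted p under 0.05, the largest difference in each of 9 role groups, the chains of C1q and fibrinogen, C4 and C3, and up to 8 further genes of the systems; others were named for their values, as said beside C6, C8b and Cfp, or are given briefly by role. Replicate numbers come from the titles; deviations of same-numbered arrays correlated at 0.19, -0.32 and -0.20, so the numbers do not pair the arrays.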

Additional observations from a re-analysis of the deposited data

How the results depend on the processing

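Counts past the adjusted threshold over all genes were 3, and 1 with 75th percentile scaling, median scaling, normexp correction or the strict filter, 5 with no filter, 15 with slide as a fixed block, 0 with slide 2 alone (2304 genes at an unadjusted p under 0.05 in limma's test), 892 with array weights and 1 to 50 over the fits that leave out 1 array, 50 of them without control 3 and 1 without MC-LR 1. The count of the 44 genes past it was 0 in every setting run but array weights, where it was 3. That of the further genes of the systems was 0 in every setting but array weights, where it was 2 (Habp2 and Serpina10). With array weights 4.72% of all genes passed. Array weights and leaving out control 3 set mostly or only slide 1 controls against slide 2 MC-LR arrays. At an unadjusted p under 0.05 the 44 genes gave 3 (against 12.9% of all genes), and 9 with the slide block (16.1%), 13 with array weights (29.9%) and 9 without control 3 (20.8%). They gave 5 with median scaling, 8 with normexp, 6 with trend and robust eBayes and 2 to 9 with 1 array left out. Apart from the fit without control 3, the share of all genes was not counted in these settings, so no gain for the 44 can be read from them. The median difference of the 44 was -0.08, and -0.009 with 75th percentile scaling, 0.026 with median scaling, -0.003 with slide as a fixed block and on slide 2 alone, -0.039 with slide as a random block and -0.14 with array weights; with 1 array left out it was -0.09 to -0.05. With the replicate block, which no pairing of the numbers bears out, 0 genes passed and 4 of the 44 stood at an unadjusted p under 0.05. The share of all genes was not counted there either. C3 turned to 0.12, 0.15 and 0.011 under 75th percentile scaling, median scaling and normexp, the third Masp1 probe gave -0.14 and a second Tfpi probe 0.14, and Serpinf2, C4a and C4b turned to 0.01, 0.25 and 0.11 both with the slide block and on slide 2 alone; the cause was not tested. Of 440 values for 22 named genes, 424 kept direction and side of the threshold, and 16 genes were never reversed. This count says little, since none of the 22 passed in the main fit and several settings could hardly change a value. For genes with 1 probe, a second probe or the mean of probes is the same probe. Deposited values differed from the main ones by a median of 5e-04, and slide 2 alone repeats the block's differences. Sizes still moved, for Fga from -0.93 to -0.053. All 44 genes were well above background on every array, so none passed the filter through a single group. Lower signal may still matter, as for Cfd and the C4a probe. The C4a difference was -0.30, and -0.21 after normexp correction. The part of lower signal in these values was not tested.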

Other observations

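Among the further genes of the same systems, 20 were higher and 24 lower in control 3 than in the mean of controls 1 and 2. The 3 described here are known from cells other than hepatocytes and were picked after their values were seen, because control 3 was high. Others known from such cells were not: the difference between control 3 and the mean of controls 1 and 2 was -0.71 for C5ar2, -0.33 for Thbd and 0.05 for Vwf. F13a1, the catalytic subunit of factor XIII, made by macrophages and megakaryocytes, measured 6.42, 6.62 and 6.33 in MC-LR livers, against 6.26, 6.27 and 7.86 in control livers. Procr, the endothelial receptor of protein C, measured 8.38, 8.61 and 8.55 in MC-LR livers, against 8.38, 8.29 and 9.64 in control livers. C3ar1, the receptor of the C3a fragment on myeloid cells, measured 6.88, 7.08 and 6.70 in MC-LR livers, against 6.43, 6.66 and 7.79 in control livers. For each of the 3 genes, control 3 lay above the other 5 livers, as the choice required. Their differences over all arrays were -0.34, -0.26 and -0.07 (adjusted p of 0.782, 0.802 and 0.953 in limma's test). With control 3 as the comparator on its slide they were -1.40, -1.13 and -0.90. These last values follow from choosing genes with a high control 3 and are no separate result.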
